A study of Mus musculus with 8 samples.

Results

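Antiviral genes that are induced by type I interferon were followed in mouse lymph node (LN) RNA, array by array and from untreated mice to mice given adjuvant. The list names 44 genes, and a gene was taken as measured where the array has a probe set annotated to it and to no other gene. By that rule 37 of the 44 were measured, of 12393 genes on the array with a probe set of their own. Where a gene had several such probe sets, the brightest by its mean over the 8 arrays stood for it. Isg15 was among the 7 without a value, because its probe set is shared with Gm9706. The other genes without a probe set of their own were Oas1g, Ifi44, Xaf1, Dtx3l, Samd9l and Herc6.

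The mice were C57BL/6 wild type (WT) and H3RKO, a constitutive knockout of the histamine H3 receptor gene (line B6.129P2-Hrh3tm1Twl). The paper states that C57BL/6J mice were purchased and that the knockout line was kept at the University of Vermont. An effect of the knockout therefore cannot be told apart from one of strain background or colony. Each array held pooled RNA of at least 3 mice, 8 weeks old. Female and male mice were used, and how the sexes were divided among the pools is not given. There were 2 untreated arrays per genotype, and each genotype had 1 array 24 h after CFA and 1 array 24 h after CFA+PTX. CFA is complete Freund's adjuvant, killed mycobacteria in oil, and PTX is pertussis toxin, made by Bordetella pertussis. The titles of the last pair name PTX alone, whereas their descriptions name both agents, and they are called CFA+PTX here. The untreated arrays came from mice with no injection named in the labels, so the effect of an injection itself cannot be told apart from that of the adjuvant. Which lymph nodes were pooled for the arrays is not given in the sources used here.

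Type I interferons are secreted by cells that sense nucleic acid or bacterial products, and they bind a receptor made of IFNAR1 and IFNAR2. The receptor activates the kinases JAK1 and TYK2, and a complex that holds STAT2 and IRF9 then enters the nucleus and binds a short element in the promoters of the induced genes. Many of their products block the copying, translation or release of viruses, some sense viral RNA, and others amplify or end the response. In LN, macrophages at the sinuses and plasmacytoid dendritic cells are known sources of the interferon, and almost every cell type can respond to it.

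Values are log2 signals from the Robust Multichip Average (RMA), so a difference of 1 is a doubling. They ran from 7.40 to 13.06 for the 37 antiviral genes, and the median over the whole table was 7.97. Levels of different genes are not compared, because probe sets differ in brightness. Differences carry the standard error (SE) that limma gives, a method that fits a linear model to each probe set and moderates its variance by those of all others. Only the untreated groups had replicates, so their pairs set the spread, and single treated arrays are taken to vary as much. The labels do not say how the pools of a pair were formed, and the p-values measure only the spread between these arrays. Several LN markers were bright in all arrays, but others were not. Pax5 of B cells was dim, at 6.31 to 6.59, and Madcam1 of high endothelium lay at 8.25 to 9.34. Genes of salivary and lacrimal glands, given near the end, were also bright in most arrays. Cxcl13, the B cell chemokine of LN follicles, lay at 12.63 to 13.26, Ms4a1 of B cells at 12.72 to 13.16 and Cd3e of T cells at 10.29 to 10.61. In bulk LN RNA, fewer cells of a type and less RNA per cell cannot be told apart. Hrh3 itself had 6.56 to 6.66 in WT arrays and 7.20 to 7.29 in H3RKO arrays. Its probe set is not placed relative to the deleted part in the sources used here and does not check the labels.

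The antiviral genes were lowest in untreated WT LN and highest in treated WT LN, while H3RKO LN had intermediate levels with and without adjuvant. The mean over the 37 genes was 9.66 and 9.98 in the WT untreated arrays, 10.00 and 10.34 in the H3RKO untreated arrays, 10.43 in WT CFA, 10.29 in H3RKO CFA, 10.46 in WT CFA+PTX and 10.18 in H3RKO CFA+PTX. Over all 12393 genes, the mean stayed between 8.10 and 8.14. WT untreated replicate 1 was the lowest array for 32 of the 37 genes. WT CFA+PTX was the highest array for 21 genes, WT CFA for 11 and an untreated H3RKO array for the others, namely replicate 2 for Ifit1, Rsad2, Rtp4 and Ifi35 and replicate 1 for Cxcl10.

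**Figure D1:**
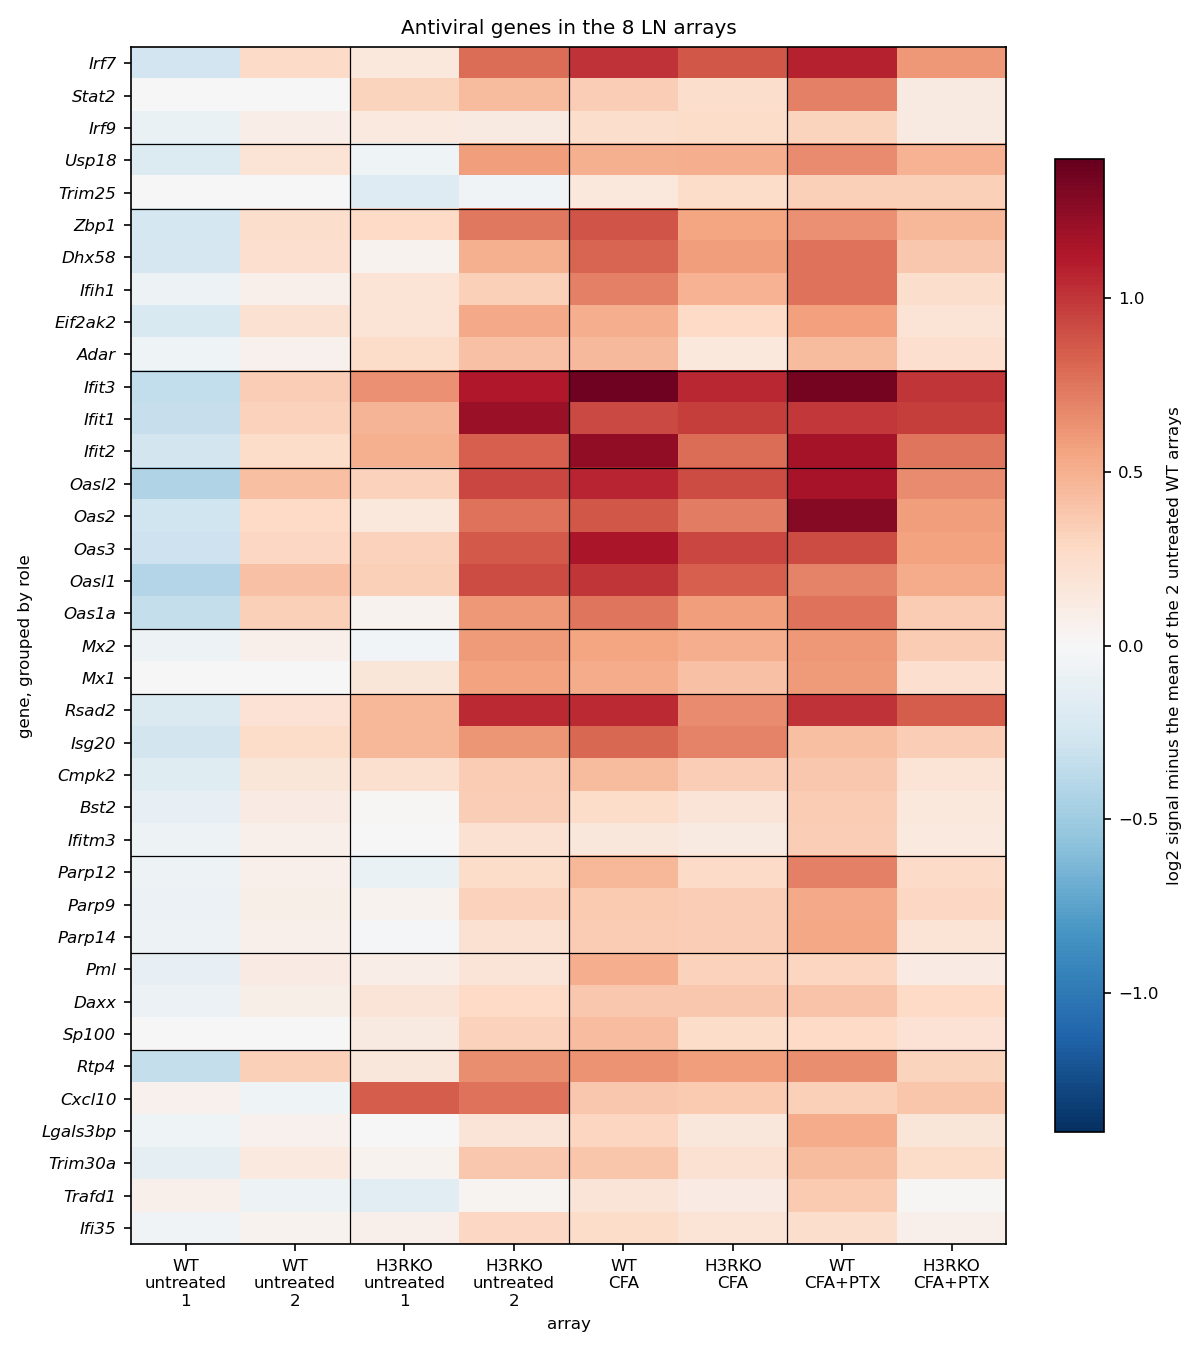
Log2 signal of the 37 antiviral genes (rows, grouped by role with lines between the groups) in the 8 arrays (columns), drawn as the difference from the mean of the 2 WT untreated arrays, red for higher and blue for lower. The treated WT columns are red throughout, and H3RKO untreated replicate 2 is about as red as the treated H3RKO columns.

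Replicate pools of untreated mice also differed from each other. Replicate 2 was above replicate 1 for 33 of 37 genes in WT (median difference 0.22) and for 35 of 37 in H3RKO (median 0.33). Between H3RKO untreated replicate 1 and WT untreated replicate 2, the median difference was −0.03, with 17 genes higher and 20 lower in H3RKO. The widest gap between untreated arrays, H3RKO replicate 2 over WT replicate 1, had a median of 0.57 and exceeded 1 for 9 genes. The untreated genotype difference was therefore close to the difference between pools of 1 genotype, whereas all treated WT values lay above both WT pools.

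**Figure D2:**
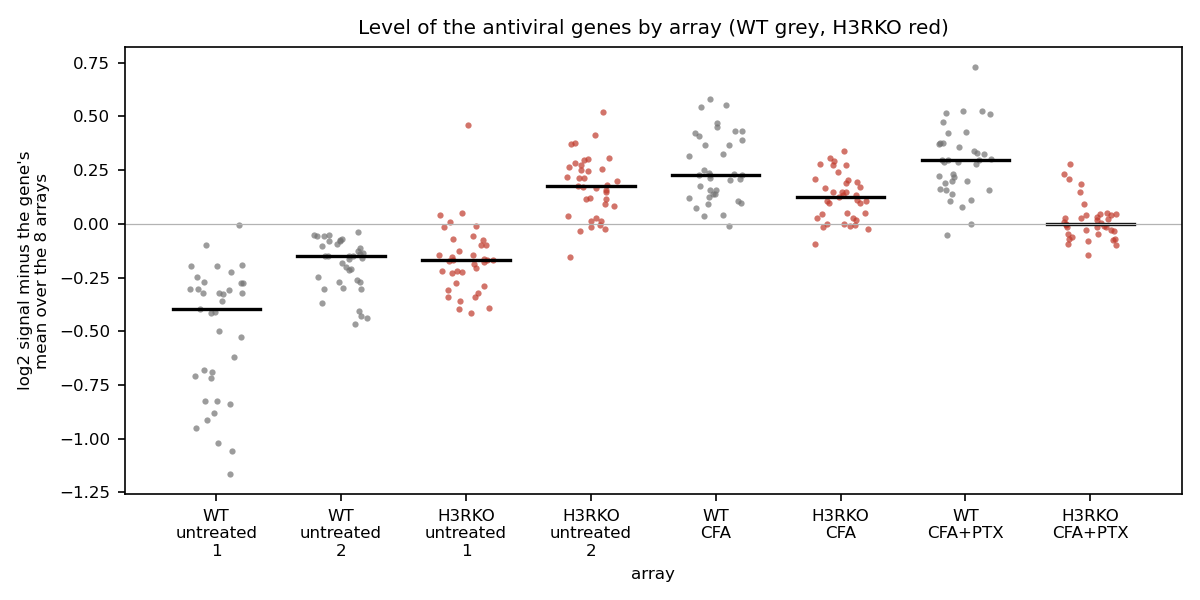
Each point is 1 of the 37 antiviral genes in 1 array, as its log2 signal minus that gene's mean over the 8 arrays (y axis), with the median as a black bar. The medians were −0.40 and −0.15 in WT untreated, −0.17 and 0.17 in H3RKO untreated, 0.23 in WT CFA, 0.12 in H3RKO CFA, 0.30 in WT CFA+PTX and 0.00 in H3RKO CFA+PTX.

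The element bound by the complex with STAT2 and IRF9, the interferon-stimulated response element, was searched as GAAANNGAAA on both strands of RefSeq promoters (GRCm38.p6), windows of 300 bases of which 250 lie before the start. Of the 44 genes, 35 had a promoter in that table, and 14 of them (40.0%) held a match, against 1079 of 27025 genes (3.99%). Among the genes measured here, 12 of 28 held one (42.9%). A match is a run of letters and not a shown binding site, and no match says only that these letters are not in the window. The windows below are for some of the genes that held a match, so they do not show how common a match was. They give the bases before the start, 5′ to 3′ on the strand of the gene. Matches to GAAANNGAAA or its reverse complement are in capitals.
Ifit1, chr19:34640729-34640888 (+ strand): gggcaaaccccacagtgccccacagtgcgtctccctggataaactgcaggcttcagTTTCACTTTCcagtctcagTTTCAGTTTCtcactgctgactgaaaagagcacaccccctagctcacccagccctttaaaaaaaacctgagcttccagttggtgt
Ifit3, chr19:34583369-34583528 (+ strand): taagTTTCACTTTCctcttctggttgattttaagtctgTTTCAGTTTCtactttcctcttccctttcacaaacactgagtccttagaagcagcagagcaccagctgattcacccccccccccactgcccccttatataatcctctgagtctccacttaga
Oas1a, chr5:120907526-120907685 (− strand): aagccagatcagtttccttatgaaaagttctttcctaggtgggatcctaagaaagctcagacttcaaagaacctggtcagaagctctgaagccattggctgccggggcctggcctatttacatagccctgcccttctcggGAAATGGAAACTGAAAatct
Rsad2, chr12:26456453-26456612 (− strand): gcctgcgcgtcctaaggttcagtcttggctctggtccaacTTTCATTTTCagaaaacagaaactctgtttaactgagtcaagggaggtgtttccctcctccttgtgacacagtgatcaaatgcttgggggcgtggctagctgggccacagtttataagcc
Stat2, chr10:128270248-128270497 (+ strand): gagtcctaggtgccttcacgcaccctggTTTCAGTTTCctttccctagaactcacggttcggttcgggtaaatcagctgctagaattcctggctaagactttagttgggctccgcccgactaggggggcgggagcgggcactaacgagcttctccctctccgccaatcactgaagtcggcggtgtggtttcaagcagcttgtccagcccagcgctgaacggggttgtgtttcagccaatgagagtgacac
Cxcl10, chr5:92348890-92349139 (− strand): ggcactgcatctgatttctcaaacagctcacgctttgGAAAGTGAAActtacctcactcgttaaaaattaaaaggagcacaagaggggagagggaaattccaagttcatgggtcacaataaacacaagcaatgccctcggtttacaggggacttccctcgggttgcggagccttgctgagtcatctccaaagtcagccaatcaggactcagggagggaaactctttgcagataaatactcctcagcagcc

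Ifit1 and Ifit3 each held 2 separate matches, first at positions −104 and −156 from the start. In Oas1a the 2 matches overlap next to the start, and Rsad2, Stat2 and Cxcl10 held 1 each. Ifit2, Irf7, Oasl1 and Oasl2, each highest in a treated WT array as Ifit3 was, had none in their windows.

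The Ifit genes encode proteins that bind viral RNA lacking the cap marks of host messages, and Ifit3 had the largest WT change of the 37 genes after each treatment. Ifit3 was at 9.36 and 10.06 in WT untreated, 11.07 in WT CFA and 11.05 in WT CFA+PTX. In H3RKO LN it was at 10.35 and 10.83 untreated, 10.77 after CFA and 10.71 after CFA+PTX. The treated WT arrays thus lay above every other array, and the treated H3RKO arrays lay between their own untreated pools. Ifit3 rose in WT by 1.36 ± 0.33 after CFA (2.57-fold) and by 1.34 ± 0.33 after CFA+PTX (2.53-fold). The H3RKO changes were 0.18 ± 0.33 and 0.12 ± 0.33.

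Ifit2 was at 8.68 and 9.18 in WT untreated, 10.17 in WT CFA and 10.10 in WT CFA+PTX, against 9.43 and 9.76 in H3RKO untreated, 9.71 in H3RKO CFA and 9.68 in H3RKO CFA+PTX. It rose in WT by 1.24 ± 0.24 and 1.17 ± 0.24, and the H3RKO changes were 0.12 ± 0.24 and 0.09 ± 0.24. Ifit1 differed in that its highest value was in an untreated pool. It had 9.37 and 10.02 in WT untreated, 10.17 and 10.91 in H3RKO untreated, 10.62 and 10.69 in the WT CFA and CFA+PTX arrays and 10.67 in both treated H3RKO arrays. Genotypes were about level for Ifit1 after treatment (differences of 0.04 ± 0.43 and −0.02 ± 0.43), and its WT changes of 0.93 ± 0.37 and 0.99 ± 0.37 stayed under 2-fold.

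The study called a gene where p was under 0.05 before adjustment and the fold change exceeded 2. By that criterion, 7 of the 37 antiviral genes rose in WT LN after CFA, where 0.169% of all 12393 genes did. They were Ifit2, Ifit3, Oas3, Oasl1, Oasl2, Rsad2 and Irf7. After CFA+PTX 6 rose in WT, again against 0.169%, namely Ifit2, Ifit3, Oas2, Oasl2, Rsad2 and Irf7. Both comparisons share the 2 WT untreated arrays. The linear model of the study's methods, without limma's moderation, called none of the 37 by this criterion in either comparison (0.0484% and 0.0646% of all genes called upwards). In that model 2 of the 37 had an unadjusted p under 0.05 in each comparison, and the share of all genes at that p was not computed. All 37 genes had a positive WT change, with a median of 0.51 after CFA and 0.60 after CFA+PTX, when the median over all genes was −0.01 and 0.01. At an unadjusted p alone, 22 passed after CFA (1.45% of all genes passed upwards) and 23 after CFA+PTX (5.33%). No antiviral gene passed a Benjamini-Hochberg adjusted p of 0.05 over 22626 probe sets (limma), with the lowest values at 0.61 and 0.336.

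These counts rest on WT untreated replicate 1, the lowest array. Against WT untreated replicate 2 alone, the median changes were 0.40 after CFA and 0.43 after CFA+PTX. The largest of the 37 were then those of Ifit3, at 1.01 and 0.99. The order of the arrays did not hang on replicate 1. WT CFA lay above both WT untreated arrays for 37 of 37 antiviral genes (26.8% of all genes), as did WT CFA+PTX (37.9%), and both treated WT arrays did so together for 37 of 37 (16.5%).

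In H3RKO LN, none of the 37 genes passed the criterion after CFA (0.0161% of all genes passed upwards) or after CFA+PTX (0.0968%). At an unadjusted p from limma, 2 passed in each comparison, Trim25 upwards and Cxcl10 downwards. Of all genes, 2.99% passed upwards after CFA and 1.99% after CFA+PTX, and 5.09% and 4.16% passed in either direction. The linear model without moderation called none either. The median change was 0.16 after CFA, with 31 genes higher, 5 lower and Bst2 at 0, and 0.03 after CFA+PTX, with 20 higher and 17 lower. The medians over all genes were 0.04 and 0.00.

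H3RKO CFA lay above both H3RKO untreated arrays for 13 of 37 antiviral genes, where 46.9% of all genes did. H3RKO CFA+PTX lay above both for 3 of 37, where 36.0% of all genes did, and the 3 genes were Parp12, Trim25 and Daxx. The same 3 were the ones with both treated arrays above both untreated ones (25.3% of all genes). Against H3RKO untreated replicate 2 alone, the median difference was −0.05 after CFA and −0.17 after CFA+PTX. Against replicate 1 alone it was 0.28 and 0.19, so the sign of the H3RKO change depended on the pool taken as the baseline.

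**Figure D3:**
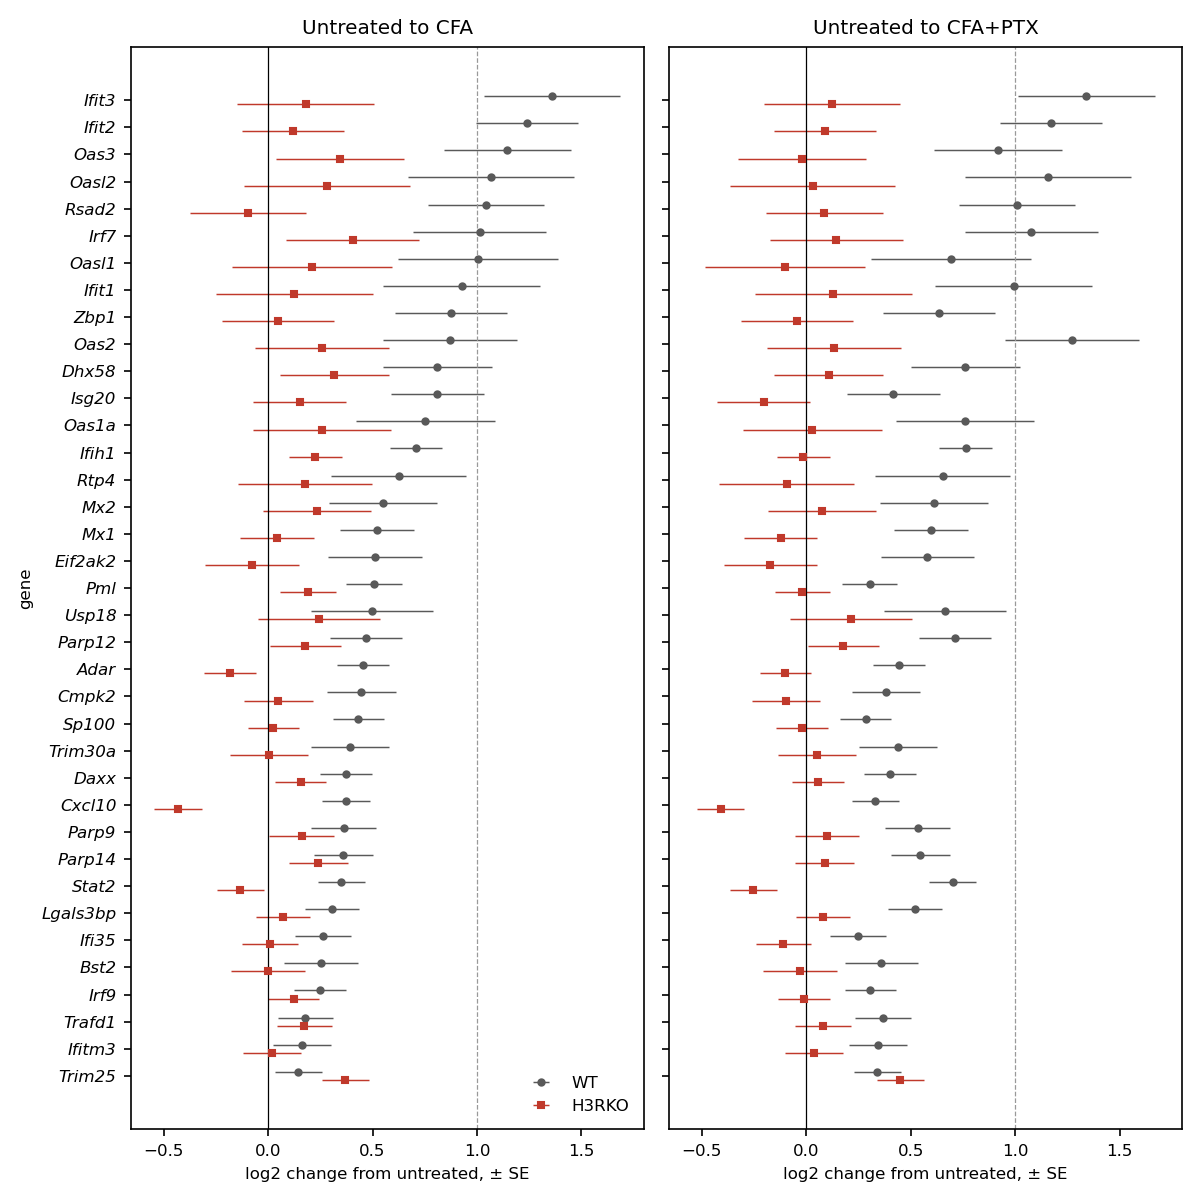
Log2 change from untreated (x axis, point and SE) of the 37 antiviral genes (y axis, ordered by the WT change after CFA) in WT (grey circles) and H3RKO (red squares), after CFA at left and CFA+PTX at right, with a dashed line at a doubling. Every WT change is above 0, up to 1.36 for Ifit3, and the H3RKO changes lie between −0.43 and 0.45.

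The Oas genes encode enzymes that make a messenger of linked adenylates, which activates RNase L to degrade RNA, or related proteins without that activity. All 5 measured had positive WT changes in both treatments, and 3 of 5 passed the criterion after CFA. Oas2 was at 8.73 and 9.29 in WT untreated, 9.16 and 9.77 in H3RKO untreated, 9.88 in WT CFA, 9.72 in H3RKO CFA, 10.28 in WT CFA+PTX and 9.60 in H3RKO CFA+PTX. The WT CFA+PTX array stood highest and the H3RKO CFA+PTX array within its own untreated range. Oas2 rose in WT by 1.27 ± 0.32 after CFA+PTX, while its WT change after CFA was 0.87 ± 0.32.

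Oas3 had 7.91 and 8.49 in WT untreated, 8.52 and 9.06 in H3RKO untreated, 9.34 and 9.13 in WT and H3RKO CFA and 9.12 and 8.76 in WT and H3RKO CFA+PTX. It rose in WT by 1.15 ± 0.31 after CFA, and in H3RKO the difference was 0.34 ± 0.31. WT CFA was its highest array, and H3RKO CFA+PTX lay within the H3RKO untreated range. Oasl2, an Oas-like protein, had 8.50 and 9.35 in WT untreated, the widest gap between the WT pools of any of these genes (0.85). Its other values were 9.25 and 9.86 in H3RKO untreated, 9.99 and 9.84 in WT and H3RKO CFA and 10.08 and 9.59 in WT and H3RKO CFA+PTX. It rose in WT by 1.07 ± 0.40 and 1.16 ± 0.40, against 0.28 ± 0.40 and 0.03 ± 0.40 in H3RKO.

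Oasl1, known to restrain translation of Irf7, had 8.40 and 9.23 in WT untreated, 9.15 and 9.73 in H3RKO untreated, 9.82 and 9.65 after CFA and 9.51 and 9.34 after CFA+PTX in WT and H3RKO. It rose in WT by 1.00 ± 0.38 after CFA and had 0.69 ± 0.38 after CFA+PTX. The Oas1a changes were 0.75 ± 0.33 and 0.76 ± 0.33 in WT, without passing, and 0.26 ± 0.33 and 0.03 ± 0.33 in H3RKO.

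Among the transcription factors, Irf7, which drives most interferon-alpha genes, was at 10.26 and 10.79 in WT untreated, 10.67 and 11.30 in H3RKO untreated, 11.54 in WT CFA, 11.39 in H3RKO CFA, 11.60 in WT CFA+PTX and 11.13 in H3RKO CFA+PTX. It rose in WT by 1.01 ± 0.32 and 1.08 ± 0.32. Its H3RKO change after CFA, 0.41 ± 0.32, was the largest positive one in that comparison among the 37 genes, and H3RKO CFA lay just above both untreated pools.

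Stat2, part of the complex that binds the promoter element shown above, had changes of opposite sign in the genotypes. It was at 8.64 in both WT untreated arrays, 8.99 in WT CFA and 9.34 in WT CFA+PTX. In H3RKO it was at 8.95 and 9.09 untreated, 8.89 after CFA and 8.77 after CFA+PTX. The WT untreated arrays were the 2 lowest of the 8, and the treated H3RKO arrays lay below both H3RKO untreated ones. The changes were 0.35 ± 0.11 and 0.70 ± 0.11 in WT and −0.13 ± 0.11 and −0.25 ± 0.11 in H3RKO, none over 2-fold. A dimmer Stat2 probe set gave 8.42 and 8.56 in WT untreated and 8.86 and 9.06 in WT treated, but its treated H3RKO values (8.90 and 8.77) lay between the H3RKO untreated ones (8.67 and 8.92). Irf9, another part of the complex, spanned 9.87 to 10.27, with WT changes of 0.25 ± 0.12 and 0.31 ± 0.12 and H3RKO changes of 0.12 ± 0.12 and −0.01 ± 0.12.

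The sensors of viral RNA and DNA had positive WT changes in 5 of 5 cases after each treatment, from 0.45 to 0.88 after CFA, and none passed the fold of the criterion. Ifih1, the sensor MDA5 of long double-stranded RNA, was at 9.29 and 9.44 in WT untreated, 9.56 and 9.71 in H3RKO untreated, 10.08 in WT CFA, 9.86 in H3RKO CFA, 10.13 in WT CFA+PTX and 9.62 in H3RKO CFA+PTX. Its WT changes of 0.71 ± 0.13 and 0.76 ± 0.13 were large against their SE, with the lowest adjusted p of the 37 genes (0.61 after CFA and, as for Stat2, 0.336 after CFA+PTX, limma). After CFA+PTX it was lower in H3RKO than in WT, with a difference of −0.51 ± 0.15.

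Dhx58, the regulator LGP2 of RNA sensing, had 8.67 and 9.14 in WT untreated, 8.95 and 9.40 in H3RKO untreated, 9.71 and 9.49 after CFA and 9.66 and 9.28 after CFA+PTX in WT and H3RKO. Zbp1, a sensor of left-handed nucleic acid, had 8.71 and 9.20 in WT untreated, 9.23 and 9.69 in H3RKO untreated, 9.83 and 9.51 after CFA and 9.59 and 9.42 after CFA+PTX. Eif2ak2, the kinase PKR that halts translation, had 7.40 and 7.83 in WT untreated, 7.80 and 8.14 in H3RKO untreated, 8.12 and 7.89 after CFA and 8.19 and 7.80 after CFA+PTX. All 3 genes had the treated WT arrays above the H3RKO array of the same treatment. A dimmer probe set had H3RKO above WT for Eif2ak2 after CFA+PTX and for Dhx58 after CFA.

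Adar, which edits adenosine in double-stranded RNA and so keeps host RNA from being sensed, had changes of opposite sign like Stat2. It had 9.78 and 9.90 in WT untreated and 10.29 and 10.28 in WT CFA and CFA+PTX. In H3RKO it had 10.09 and 10.25 untreated and 9.98 and 10.07 after CFA and CFA+PTX. The changes were 0.45 ± 0.12 and 0.44 ± 0.12 in WT and −0.18 ± 0.12 and −0.10 ± 0.12 in H3RKO.

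**Figure D4:**
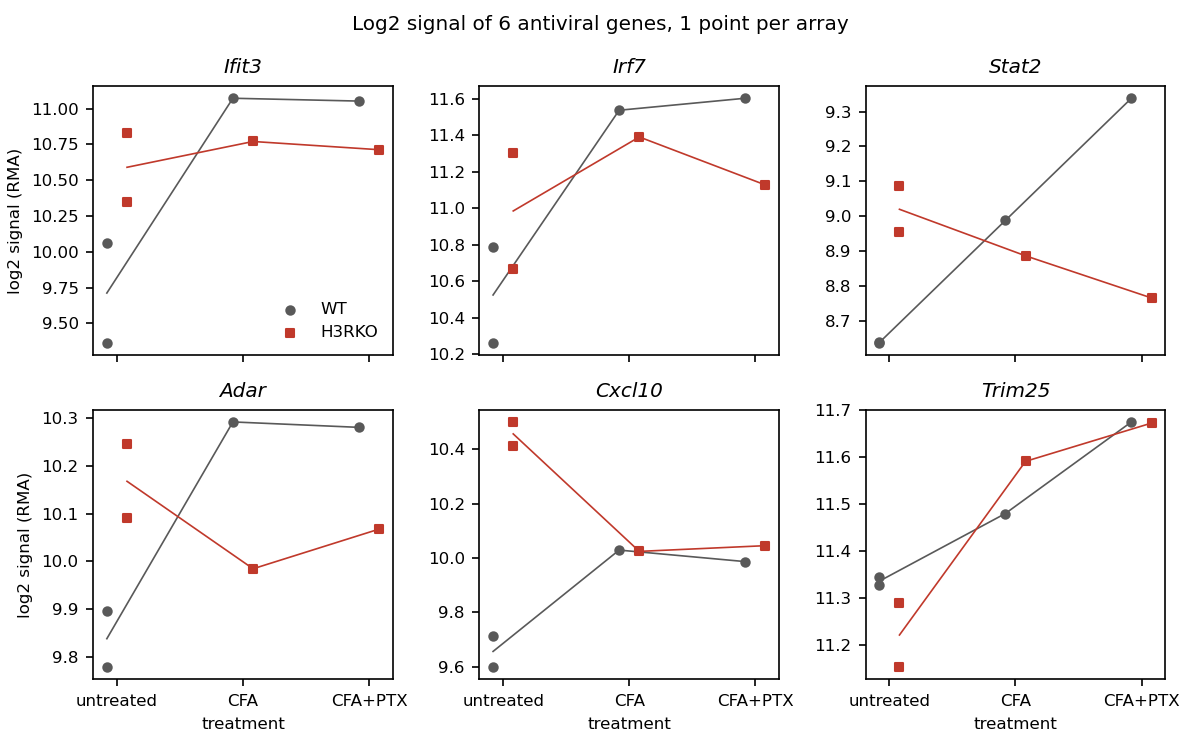
Log2 signal (y axis, a scale of its own in each panel) of 6 antiviral genes by treatment, 1 point per array, with lines through the untreated mean, in WT (grey circles) and H3RKO (red squares). For Stat2, Adar and Cxcl10 the treated WT points lie above and the treated H3RKO points below their own untreated points, and Trim25 goes up in both genotypes.

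Of the genes that restrict virus entry, replication and release, Rsad2 (viperin, an enzyme that makes a chain-ending nucleotide) was at 9.39 and 9.80 in WT untreated, 10.06 and 10.64 in H3RKO untreated, 10.63 in WT CFA, 10.25 in H3RKO CFA, 10.60 in WT CFA+PTX and 10.43 in H3RKO CFA+PTX. It rose in WT by 1.04 ± 0.28 and 1.01 ± 0.28, and the H3RKO changes were −0.10 ± 0.28 and 0.09 ± 0.28. H3RKO untreated replicate 2 was as high as the treated WT arrays. Isg20, an exonuclease of RNA, had 9.09 and 9.61 in WT untreated, 9.82 and 9.97 in H3RKO untreated, 10.16 and 10.04 after CFA and 9.77 and 9.69 after CFA+PTX. Its level was lower after CFA+PTX than after CFA in both genotypes.

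Cmpk2, the neighbour of Rsad2 that supplies the nucleotide Rsad2 uses, had 8.02 and 8.35 in WT untreated, 8.42 and 8.55 in H3RKO untreated, 8.63 and 8.53 after CFA and 8.57 and 8.38 after CFA+PTX. Bst2, or tetherin, which holds budding virus at the cell surface, had 10.52 and 10.74 in WT untreated, 10.64 and 10.97 in H3RKO untreated, 10.88 and 10.81 after CFA and 10.99 and 10.78 after CFA+PTX. Ifitm3, which blocks fusion of virus with endosomes, was bright and moved little, from 12.65 to 13.06, with WT changes of 0.16 ± 0.14 and 0.34 ± 0.14.

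Mx1 and Mx2, genes of the Mx family of GTPases, had much the same course. Mx1 had 8.51 and 8.53 in WT untreated, 8.69 and 9.08 in H3RKO untreated, 9.04 and 8.93 after CFA and 9.12 and 8.76 after CFA+PTX in WT and H3RKO. Mx2 had 7.84 and 7.99 in WT untreated, 7.88 and 8.51 in H3RKO untreated, 8.46 and 8.42 after CFA and 8.52 and 8.27 after CFA+PTX. The WT changes were 0.52 ± 0.18 and 0.60 ± 0.18 for Mx1 and 0.55 ± 0.26 and 0.61 ± 0.26 for Mx2. No H3RKO change of either exceeded its SE, from −0.12 ± 0.18 to 0.23 ± 0.26.

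In the ISG15 system, which attaches a ubiquitin-like protein to others, Usp18 removes the tag and damps signalling at the interferon receptor. Usp18 had 10.22 and 10.59 in WT untreated, 10.35 and 10.99 in H3RKO untreated, 10.90 and 10.91 after CFA and 11.07 and 10.89 after CFA+PTX, so the genotypes were level after CFA. Trim25, a ligase for ubiquitin and ISG15 that acts on the sensor RIG-I, had a course unlike the others. It was at 11.34 and 11.33 in WT untreated, 11.15 and 11.29 in H3RKO untreated, 11.48 and 11.59 after CFA and 11.68 and 11.67 after CFA+PTX. Its H3RKO changes, 0.37 ± 0.11 and 0.45 ± 0.11, stood against 0.14 ± 0.11 and 0.34 ± 0.11 in WT, and the difference between genotypes did not pass the criterion. Of its 2 other probe sets, the dimmer one had an H3RKO value after CFA of 8.27, no higher than in the untreated pools (8.27 and 8.52).

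The ADP-ribose transferases of this set had small WT changes that were larger after CFA+PTX. Parp12, which stops translation in stressed cells, had 9.68 and 9.83 in WT untreated, 9.66 and 10.01 in H3RKO untreated, 10.22 and 10.02 after CFA and 10.46 and 10.02 after CFA+PTX. Parp14 had 10.86 and 10.99 in WT untreated, 10.91 and 11.14 in H3RKO untreated, 11.28 and 11.27 after CFA and 11.47 and 11.11 after CFA+PTX. Parp9, the partner of Dtx3l, had 10.61 and 10.78 in WT untreated, 10.74 and 11.01 in H3RKO untreated, 11.05 and 11.04 after CFA and 11.22 and 10.98 after CFA+PTX. H3RKO was lower than WT for all 3, with differences from −0.21 to −0.02 after CFA and from −0.45 to −0.25 after CFA+PTX.

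Among the genes of nuclear bodies, Pml and Sp100 had larger WT changes after CFA than after CFA+PTX, and none passed the criterion. Pml, the scaffold of these bodies, had 10.40 and 10.62 in WT untreated, 10.61 and 10.69 in H3RKO untreated, 11.02 and 10.84 after CFA and 10.82 and 10.63 after CFA+PTX. Sp100, a resident protein, had 9.95 and 9.94 in WT untreated, 10.08 and 10.27 in H3RKO untreated, 10.38 and 10.20 after CFA and 10.23 and 10.15 after CFA+PTX. Daxx, a histone chaperone there, had 10.54 and 10.71 in WT untreated, 10.80 and 10.89 in H3RKO untreated, 10.99 and 11.00 after CFA and 11.02 and 10.90 after CFA+PTX.

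Cxcl10, the chemokine that draws CXCR3-bearing T cells and is induced by both types of interferon, separated the untreated genotypes most clearly. It was at 9.71 and 9.60 in WT untreated and at 10.50 and 10.41 in H3RKO untreated, a difference of 0.80 ± 0.09 (adjusted p = 0.298, limma). After treatment the genotypes met, at 10.03 and 10.02 after CFA and at 9.99 and 10.05 after CFA+PTX in WT and H3RKO. The changes were 0.37 ± 0.11 and 0.33 ± 0.11 in WT and −0.43 ± 0.11 and −0.41 ± 0.11 in H3RKO, and none exceeded 2-fold. The 2 untreated H3RKO arrays were the highest of the 8 and the 2 untreated WT arrays the lowest.

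Rtp4, a chaperone of receptors that also binds viral RNA, had 10.23 and 10.90 in WT untreated, 10.72 and 11.22 in H3RKO untreated, 11.19 and 11.15 after CFA and 11.22 and 10.87 after CFA+PTX. Trim30a, a negative regulator of Toll-like receptor signalling, had 11.99 and 12.27 in WT untreated, 12.18 and 12.50 in H3RKO untreated, 12.53 and 12.35 after CFA and 12.57 and 12.39 after CFA+PTX. Lgals3bp, a secreted galectin ligand, had 11.58 and 11.70 in WT untreated, 11.63 and 11.82 in H3RKO untreated, 11.94 and 11.79 after CFA and 12.16 and 11.80 after CFA+PTX. For Trim30a and Lgals3bp WT CFA+PTX was the highest array, and for all 3 genes H3RKO CFA+PTX lay between its untreated pools. Ifi35 had the narrowest range of the 37 genes (10.54 to 10.88), and Trafd1, a brake on Toll-like receptor signalling, ran from 10.31 to 10.83.

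In untreated LN, 35 of the 37 genes had a higher mean in H3RKO than in WT, with Trim25 and Trafd1 lower, and the median difference was 0.29 against −0.02 over all genes. None passed the criterion (0.0968% of all genes passed upwards). At an unadjusted p from limma 10 passed, all higher in H3RKO (1.69% of all genes), and the linear model without moderation called none with the fold. Beside Cxcl10 the largest differences were those of Ifit3 (0.88 ± 0.27), Ifit1 (0.84 ± 0.31) and Rsad2 (0.76 ± 0.23). Both H3RKO arrays lay above both WT arrays for 17 of 37 genes (12.5% of all genes). Stat2 (0.38 ± 0.09), Adar (0.33 ± 0.10) and Isg20 (0.54 ± 0.18) were among them, whereas Irf7, Oas2, Oasl1, Oasl2 and Usp18 overlapped. A second Zbp1 probe set of similar brightness overlapped, with 9.11 and 9.48 in WT and 9.05 and 9.33 in H3RKO, although Zbp1 is one of the 17. The median difference was 0.14 without WT untreated replicate 1 and 0.15 without H3RKO untreated replicate 2. Without H3RKO untreated replicate 1 it was 0.50, and without WT untreated replicate 2 it was 0.39.

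In the treated arrays most of the antiviral genes were lower in H3RKO than in WT. The median gaps were about the size of those between untreated pools of 1 genotype (0.22 in WT and 0.33 in H3RKO). H3RKO was lower than WT for 32 of 37 genes after CFA (median −0.15, all genes 0.04) and for 36 of 37 after CFA+PTX (median −0.25, all genes −0.03), with 1 array per genotype in each case. None passed the criterion after CFA (0.0484% of all genes passed downwards) or after CFA+PTX (0.0646%). At an unadjusted p from limma none passed after CFA and 2 after CFA+PTX, Stat2 (−0.57 ± 0.13) and Ifih1 (−0.51 ± 0.15), where 2.24% of all genes passed downwards. The linear model without moderation called none in either. Both WT treated arrays lay above the H3RKO array of the same treatment for 31 of 37 genes (22.6% of all genes), and the others were Ifit1, Usp18, Irf9, Cxcl10, Trim25 and Daxx. Of the 12 further probe sets of 9 antiviral genes, those with the opposite sign to the one used belonged to Dhx58, Stat2, Trim25 and Rtp4 after CFA and to Eif2ak2 and Trim25 after CFA+PTX. None had the opposite sign for a WT change.

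The test of whether the change differed between genotypes was the difference of changes, H3RKO minus WT. It was negative for 36 of 37 genes in both treatments, Trim25 excepted, with a median of −0.48 after CFA and −0.62 after CFA+PTX. Over all genes the medians were 0.05 and −0.01. By the criterion, 3 genes had a smaller change in H3RKO after CFA, against 0.226% of all genes. They were Ifit2 (−1.12 ± 0.35), Ifit3 (−1.18 ± 0.46) and Rsad2 (−1.14 ± 0.39). After CFA+PTX they were Ifit2 (−1.08 ± 0.35), Ifit3 (−1.22 ± 0.46) and Oas2 (−1.14 ± 0.45), against 0.121%. No adjusted p was under 0.848 (limma), and the linear model without moderation called none in either treatment. This difference contains the untreated arrays of both genotypes, so it shares them with the untreated comparison and is not independent of it. The calls in this test hung on single untreated pools, WT untreated replicate 1 and H3RKO untreated replicate 2.

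Pooling the genotypes in an additive model, the median change was 0.32 after CFA and 0.30 after CFA+PTX, against 0.01 over all genes in both. No antiviral gene had an adjusted p under 0.05 (limma), nor did any of the 12393 genes (0.00%) for CFA, for CFA+PTX (0.00%), for CFA+PTX against CFA (0.00%) or for the genotypes over all treatments (0.00%). At an unadjusted p 9 genes passed upwards after CFA (2.78% of all genes) and 6 after CFA+PTX (7.55%). Between CFA+PTX and CFA the median was −0.04, with 15 higher and 22 lower and none at an unadjusted p under 0.05. Over all treatments H3RKO and WT differed by a median of 0.03, and Cxcl10 (0.41 ± 0.15) was the only gene at an unadjusted p under 0.05 (1.29% of all genes passed upwards). By the linear model without moderation, none of these comparisons called a gene either.

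Genes upstream of the response showed little of this course. Ifnb1, the gene of interferon-beta, had 5.01 to 5.39 and the measured interferon-alpha genes lay between 3.11 (Ifna11) and 6.55 (Ifna1), and at most 31.5% of probe sets were dimmer than any of them. The receptor genes Ifnar1 (9.69 to 9.78) and Ifnar2 (10.98 to 11.22) and the kinase gene Jak1 (12.43 to 12.66) varied little. Of 25 upstream genes measured, none passed the criterion in any of the changes from untreated or genotype comparisons within a treatment. Their mean was 8.33 to 8.47 per array. Socs3, a feedback inhibitor of cytokine receptors, had changes near 0.5 in both genotypes, 0.52 ± 0.17 in WT CFA, 0.51 ± 0.17 in H3RKO CFA, 0.52 ± 0.17 in WT CFA+PTX and 0.60 ± 0.17 in H3RKO CFA+PTX. The RIG-I gene had no probe set of its own.

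Genes of the interferon-gamma response were also measured, 19 in all, and their mean stayed between 10.01 and 10.15. None rose by the criterion in any change from untreated. At an unadjusted p from limma, 5 rose in WT after CFA+PTX (5.33% of all genes) and 1 after CFA (1.45%). H3RKO was lower than WT for 14 of the 19 after CFA+PTX (median −0.15, all genes −0.03) and for 8 after CFA (median 0.01, all genes 0.04). Iigp1 and Gbp6, GTPases that attack vacuoles of microbes, had WT changes of 0.70 ± 0.12 and 0.66 ± 0.12 after CFA+PTX, with H3RKO lower than WT there by differences of −0.60 ± 0.13 and −0.46 ± 0.13. Ifng was dim, at 4.68 to 5.48. Ido1, a tryptophan-degrading enzyme, read 5.78 and 6.50 in WT untreated, 4.91 in WT CFA+PTX and 4.71 in both untreated H3RKO arrays. The WT change of −1.23 ± 0.28 passed the criterion, where 32 of 12393 genes passed downwards. However, the lower readings lay in the range of Ifng, and whether they were above background is not known.

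Cell type markers and RNA quality were set beside these results. The 6 measured plasmacytoid dendritic cell genes of 8 listed, several of which B cells also express, had a mean of 10.66 to 10.81, and neither Siglech nor Runx2 had a value. The 12 monocyte and macrophage genes had 10.73 to 11.07, highest in WT CFA+PTX. In WT, 7 of the 12 were higher after CFA and 10 after CFA+PTX (medians 0.03 and 0.28). Fcgr1 was the only one to pass the criterion in WT, after each treatment (0.169% of all genes passed upwards in each). Fcgr1, the high-affinity IgG receptor that interferon also induces, was picked after its values were seen. It had 8.13 and 8.61 in WT untreated, 8.83 and 9.03 in H3RKO untreated, 9.38 and 9.02 after CFA and 9.39 and 8.80 after CFA+PTX, and it rose in WT by 1.01 ± 0.21 and 1.02 ± 0.21.

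Neutrophil genes, 12 measured, had a mean of 7.54 to 7.72 in WT arrays and 7.87 to 8.59 in H3RKO arrays, highest in H3RKO CFA+PTX. In untreated LN 10 were higher in H3RKO than in WT, and 2 passed the criterion upwards (0.0968% of all genes). After CFA+PTX 11 were higher in H3RKO (median 1.22), and 7 passed, where 35 of 12393 genes passed upwards. Csf3r was the exception, at 8.75 in H3RKO and 9.07 in WT. From untreated to CFA+PTX in H3RKO, 9 rose, 3 fell and 3 passed upwards (0.0968%). The 6 measured NK cell genes had a mean of 8.43 to 8.67 in untreated arrays, 8.64 and 8.49 after CFA and 8.39 and 8.15 after CFA+PTX in WT and H3RKO. All 6 were lower in H3RKO CFA+PTX than untreated (median −0.55), and none passed the criterion, where 17 of 12393 genes passed downwards. The 4 measured adipocyte genes had a mean of 10.83 to 11.08 in untreated arrays, 10.25 and 10.83 after CFA and 10.53 and 10.43 after CFA+PTX. In WT CFA all 4 were lower than untreated (median −0.77) and 2 passed the criterion, where 38 of 12393 genes passed downwards. The median in H3RKO CFA was 0.02.

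Genes of salivary and lacrimal glands had 13.26 to 13.83 in most arrays, 10.71 in WT untreated replicate 1 and 5.39 in WT CFA+PTX. Those arrays were the lowest and the highest for most antiviral genes, and WT CFA, whose gland level was 13.33, lay above both WT untreated arrays for all 37 of them. The difference between 3′ and 5′ control probe sets was 0.16 to 0.31 in untreated and 0.30 to 0.44 in treated arrays. The part of these cell types, glands and RNA ends in the results was not tested.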

How the data were processed

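LN RNA was run on single-colour Affymetrix mouse arrays, 1 per pool. The deposited values are log2 signals that the authors made with RMA (background correction, normalization and summary per probe set) in Partek Genomic Suite. No earlier step was repeated, and no call of signal over background was used here. The number of arrays limits the precision.

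Of 22690 probe sets, 64 controls were set aside and 22626 tested. The platform annotation gives 20380 of them 1 gene, 691 several genes and 1555 no gene, and 12393 genes entered, each at its own brightest probe set. Changes and genotype differences came from a model with a mean for each of 6 groups (limma 3.58.1, R 4.3.3, lmFit and eBayes), with 2 residual and 3.58 prior degrees of freedom. Genes were called as in the study, at p under 0.05 without adjustment plus a fold change above 2, and Benjamini-Hochberg adjusted p was computed over all probe sets. A second model with additive terms for genotype and treatment (4 residual degrees of freedom) was called at an adjusted p under 0.05. Alternatives tried were the linear model of the methods, without moderation, trend with robust fitting, quantile normalization again, median centring, no dim probe sets (the lowest 25% by mean), no probe sets ending in _x_at or _s_at, the mean of a gene's probe sets, other thresholds, only the untreated arrays, a replicate block and each array left out.

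The genes and lists were chosen with earlier results of these data known. Every measured gene is named, and up to 4 of each role, those with the widest range, are given by array. Adar by array, Fcgr1, the LN markers and the second probe sets were added after their values were seen. Data were also simulated with variances from the distribution that limma fitted to the arrays, each probe set independent of the others. There the criterion called 45 of 100 probe sets changed 2-fold in WT CFA against WT untreated. It called all 100 changed 4-fold and 38 of 22426 unchanged ones. Genes that shift together between pools, as the antiviral genes did, were not simulated. Promoters were read from the RefSeq table. Plots used matplotlib 3.10.9 in Python 3.11.15. The qRT-PCR and EAE experiments are not analysed here.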

Additional observations from a re-analysis of the deposited data

Results flagged for a closer look

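For 3 genes after CFA and 8 after CFA+PTX, the WT array lay above both WT untreated arrays and the H3RKO array below both H3RKO untreated arrays. Of all 12393 genes, 5.76% did so after CFA and 7.23% after CFA+PTX. The difference of changes, H3RKO minus WT, is given for these genes as a description with no test, because the choice of genes fixes its sign. After CFA it was −0.48 for Stat2, −0.80 for Cxcl10 and −0.64 for Adar.

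After CFA+PTX it was −0.95 for Stat2, −0.74 for Cxcl10, −0.54 for Adar, −0.32 for Irf9, −0.48 for Cmpk2, −0.75 for Eif2ak2, −0.62 for Isg20 and −0.36 for Ifi35. Stat2, Cmpk2 and Eif2ak2 have a second probe set, and on it the H3RKO CFA+PTX array did not lie below both untreated ones. For Cmpk2 the H3RKO CFA+PTX value there was 8.12, between 7.85 and 8.14, and for Eif2ak2 it was 7.27, between 6.87 and 7.91. After CFA the H3RKO value on the second probe set lay between the untreated ones for Stat2. For Eif2ak2 it was 6.46, below both.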

How the results depend on the processing

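Of 376 alternative values, 338 kept to the reported one, 191 of 219 counts within 1.5 times and 147 of 157 medians within 0.191, the SD between untreated replicates. The cause of the other shifts was not tested. With a fold change over 1.5 in place of 2, the genes passing numbered 12 in WT CFA (0.379% of all genes in that direction), 13 in WT CFA+PTX (1.01%), 5 between untreated genotypes (0.323%), and 5 after CFA (0.718%) and 7 after CFA+PTX (0.629%) for the difference of changes. With an adjusted p in place of the criterion, and with the methods' linear model without moderation, all of these counts were 0. Trend with robust fitting left 1 gene, Ifit2, for the difference of changes after CFA+PTX.

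With each array left out in turn, the count ran from 1 to 13 in WT CFA, 0 to 10 in WT CFA+PTX, 0 to 4 between untreated genotypes, 0 to 7 for the difference of changes after CFA and 0 to 10 after CFA+PTX. The medians ran from −0.049 to 0.28 in H3RKO CFA, −0.17 to 0.19 in H3RKO CFA+PTX, 0.14 to 0.50 between untreated genotypes, −0.63 to −0.26 and −0.77 to −0.41 for the differences of changes, 0.094 to 0.52 for CFA+PTX in both genotypes and −0.26 to 0.20 for CFA+PTX against CFA. The last 2 were set by the WT or H3RKO CFA+PTX array, and 6 medians changed sign in all.

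The labels do not say that equal replicate numbers of the untreated pools belong together, and the deviations of the pools correlated at 0.123 between genotypes over all probe sets. With the replicate block, the counts were those of the main model, except for the difference of changes after CFA+PTX, where the count was higher. The share of all genes passing was not computed with the block. In simulation, 45 of 100 changes of 2-fold passed in WT CFA.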
